A study of Mus musculus with 8 samples.

Results

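The genes examined here encode the receptors with which white blood cells hold on to vessel walls and the endothelial molecules that they bind. They were 10 genes chosen by symbol: Itgam, Itgal, Itgax, Itga4 and Itgb2 (leukocyte integrin subunits), Selplg (the leukocyte ligand of the selectins), Selp and Sele (the P- and E-selectins of endothelium), and Icam1 and Vcam1 (the endothelial ligands of the integrins). All 10 were among the 22520 genes of the deposited table. Transcripts were sequenced from mouse cells in 8 libraries, 4 labelled LRP1 KO and 4 labelled Wildtype (WT below), all of strain C57BL/6 at postnatal day 14. The labels describe every library as heart, liver and lung cells mixed (they write "microvesicular"), and the series description calls them microvascular endothelial cells from endothelial LRP1 knockout mice and littermates. Per the study's methods both groups carried floxed Lrp1 alleles, and the knockout mice also carried an inducible Cre recombinase (CreER) driven by the Cdh5 promoter, which is active in endothelium. The study's text separates liver cells from heart and lung cells, where the labels have a mixture, and its methods select such cells with beads against PECAM-1, a surface protein that some leukocytes and platelets share with endothelial cells. The comparison asks which of these adhesion genes differ between the LRP1 KO and WT libraries. LRP1 is an endocytic receptor of the LDL receptor family.

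Leukocytes leave the blood in steps. Selectins on activated endothelium catch passing cells by PSGL-1, the product of Selplg, so that the cells roll, and integrins on the leukocyte then bind ICAM-1 and VCAM-1 firmly. Itgb2 encodes the shared beta chain (CD18) of the leukocyte integrins, which joins the alpha chain of Itgal (LFA-1), Itgam (Mac-1, abundant on myeloid cells) or Itgax (CD11c, of macrophages and dendritic cells). The alpha-4 chain of Itga4 joins other beta chains and binds VCAM-1. In resting vessels ICAM-1 is present at a low level, P-selectin is stored in granules, and E-selectin and VCAM-1 are best known as products of inflamed endothelium, although VCAM-1 is also made by stromal cells.

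The promoters of these genes differ in the letters that known regulators read, and those of 4 genes are shown because they represent a myeloid integrin (Itgam), the 2 selectins of endothelium and the integrin ligand whose level rose (Icam1). Each line gives the 160 bases that end just before the RefSeq start site, 5′ to 3′ on the plus strand of GRCm38.p6. Capitals mark matches, on either strand, to GAGGAA (the motif of PU.1, a factor of myeloid cells), TGANTCA (AP-1) or GGANATTCC (a form of the NF-kB motif chosen with these sequences in view). They lie at chr7:128062480-128062639 for Itgam, chr1:164048074-164048233 for Sele, chr9:21015780-21015939 for Icam1 and chr1:164115104-164115263 for Selp.
Itgam: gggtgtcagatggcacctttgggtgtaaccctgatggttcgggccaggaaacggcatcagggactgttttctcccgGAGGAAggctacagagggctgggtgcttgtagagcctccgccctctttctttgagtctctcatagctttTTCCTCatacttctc
Sele: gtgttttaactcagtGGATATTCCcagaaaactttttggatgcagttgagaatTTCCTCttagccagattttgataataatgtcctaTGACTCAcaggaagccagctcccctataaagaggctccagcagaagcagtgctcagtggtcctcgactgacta
Icam1: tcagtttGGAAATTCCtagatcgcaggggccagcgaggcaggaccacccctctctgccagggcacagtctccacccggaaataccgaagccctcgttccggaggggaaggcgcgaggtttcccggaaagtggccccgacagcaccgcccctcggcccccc
Selp: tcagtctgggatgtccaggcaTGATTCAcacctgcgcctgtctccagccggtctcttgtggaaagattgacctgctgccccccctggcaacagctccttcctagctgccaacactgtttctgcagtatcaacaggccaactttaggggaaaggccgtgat

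Windows of 250 bases before the start site were at hand for 6 of the 10 genes. GAGGAA was found in 2 of these 6 (Itgam, at 84 and 15 bases before the start site, and Sele) and in 23.3% of 32851 such windows of the genome. GGANATTCC was found in Sele, 145 bases before the start site, and in Icam1, 153 bases before it. It is in 0.819% of all windows, but because this form was chosen with these promoters in view, nothing can be read from its presence in them. TGANTCA was found in Sele, Selp and Itgax, against 6.75% of all windows, and a further NF-kB form, GGGNNTTCC, in 0 of the 6 against 4.98%. These are matches of letters, which say nothing of binding in these cells.

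Values are given in FPKM (fragments scaled to transcript length and to library size), quantile normalized across the libraries before deposit, so that levels of genes can be compared per length while sequencing depth is unknown and no counting error can be given. The median over genes of at least 1 FPKM was 11.7 to 11.8 FPKM per library. Lrp1 lay between 103 and 140 FPKM in WT libraries and between 2.79 and 7.72 FPKM in LRP1 KO libraries, so the targeted gene matched the labels in all 8 libraries. Which cells lost it cannot be told from these values. Markers of cell types other than endothelium were present. In WT the summed level was 144 to 154 FPKM for 14 endothelial markers, 57.0 to 99.6 FPKM for 13 macrophage markers and 2417 to 3631 FPKM for 10 fibroblast markers. Macrophage markers were at 237 to 572 FPKM in LRP1 KO, with 10 of 12 tested genes higher at a limma adjusted p under 0.05. Of these 10, Adgre1, Mrc1 and Ms4a7 were under 1 FPKM in every WT library and were tested only because LRP1 KO was high, so the direction of these 3 was set by the filter, and 7 of the other 9 rose. Endothelial markers reached 514, 336 and 380 FPKM in the first 3 LRP1 KO libraries but 148 FPKM in library 4, within the WT range. In such mixtures, more cells of a type and more RNA per cell cannot be told apart.

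The 4 genes with an appreciable level in every library (at least 1 FPKM) were Vcam1, Icam1, Selp and Itgb2, and these were tested together with all other genes that reached 1 FPKM in at least 4 libraries. Itgb2 and Icam1 rose in LRP1 KO, by 3.70 and 1.32 times in mean FPKM, while Selp and Vcam1 did not pass the threshold. Among the 11389 genes tested, 6.27% were called higher and 7.31% lower (limma on log2(FPKM + 1), Benjamini-Hochberg adjusted p under 0.05). The other 6 genes, at or below 2.37 FPKM in every library, were examined one by one. In 3 of these, Itgam, Itgax and Selplg, all LRP1 KO libraries lay above all WT libraries, as was the case in 5.38% of the 6637 genes that were above 0 but too low for the test, while the reverse held in 4.73% of them and in 0 of the 6. In the tested genes the same separation was seen for Itgb2 and Icam1, against a background of 8.84%. The median difference on the log2(FPKM + 1) scale was 0.43 over the 10 genes, which were chosen with earlier results of these data known. It was -0.01 over all tested genes and -8.1e-06 over those above 0 but too low for the test. Nothing in the labels says that libraries of a group came from separate animals, so p-values measure only the spread between these libraries.

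**Figure D1:**
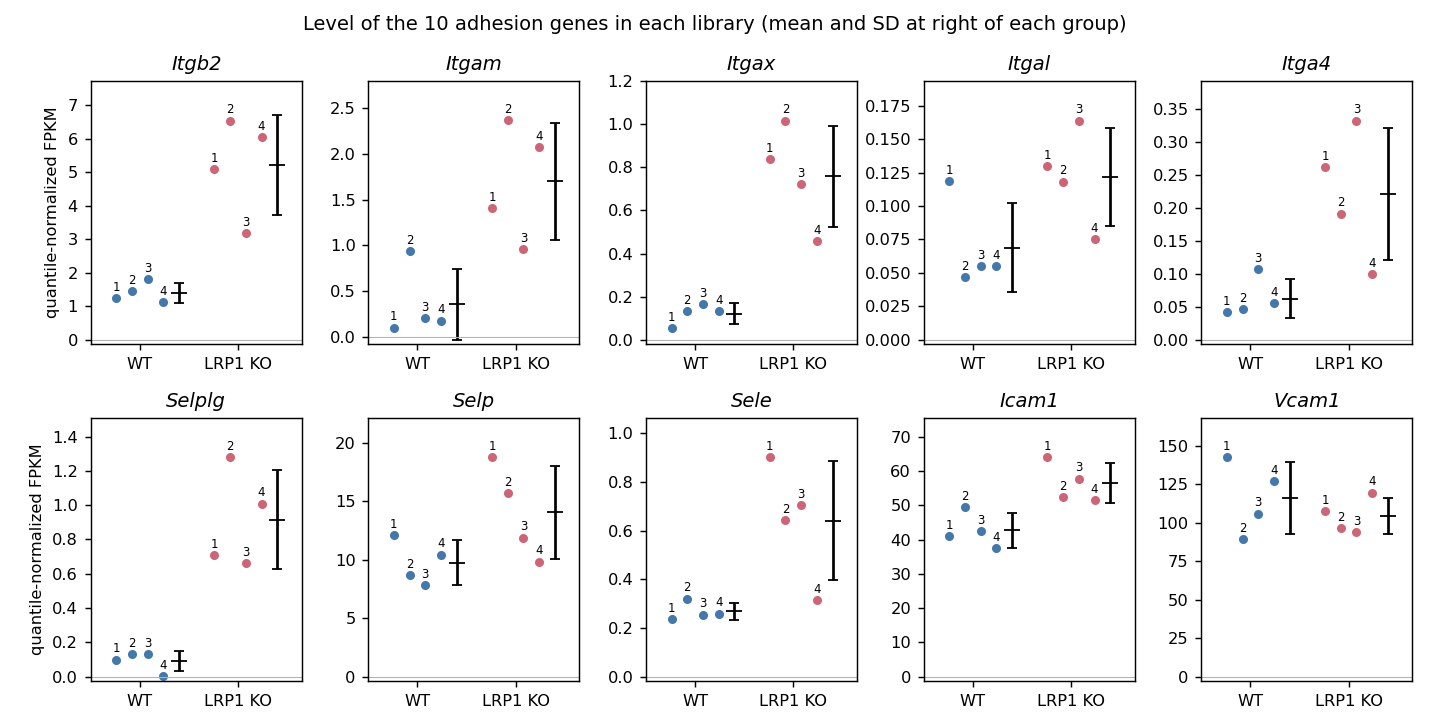
Quantile-normalized FPKM (vertical axes, 1 scale per gene) of the 10 adhesion genes in the 4 WT (blue) and 4 LRP1 KO (red) libraries, numbered by replicate, with the mean and SD in black. The LRP1 KO points of Itgb2, Itgam, Itgax, Selplg and Icam1 lie above every WT point, and those of Vcam1 (93.7 to 120 FPKM) lie inside the WT range of 89.3 to 143 FPKM.

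Itgb2 (ENSMUSG00000000290, chromosome 10, plus strand, 77530252 to 77565708 in GRCm38) is the chain without which none of the CD11 integrins reaches the cell surface. In WT libraries 1 to 4 its level was 1.25, 1.45, 1.81 and 1.12 FPKM, and in the LRP1 KO libraries, in the same numbering, it was 5.09, 6.55, 3.18 and 6.06 FPKM. The groups did not overlap, and LRP1 KO library 3 was the lowest of its group. The mean rose from 1.41 ± 0.298 to 5.22 ± 1.49 FPKM (SD, n = 4 each), a log2(FPKM + 1) difference of 1.34 (SE 0.18, limma adjusted p 0.00328, 95% interval 0.94 to 1.74). Itgb2 was the only one of the 4 tested genes to pass both the adjusted p and a 2-fold limit, which 1.12% of all tested genes did in this direction and 0.5% in the other. It passed both whichever of the 8 libraries was left out.

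Its alpha partners were lower. Itgam (ENSMUSG00000030786, chromosome 7, plus strand, 128062640 to 128118491) had 0.102, 0.935, 0.210 and 0.179 FPKM in WT libraries 1 to 4, against 1.40, 2.37, 0.959 and 2.08 FPKM in the knockouts. WT library 2 stood apart from the other 3 WT libraries and came close to LRP1 KO library 3. Itgam reached 1 FPKM in 3 libraries, 1 short of the number required for the test across genes. The means were 0.356 ± 0.388 and 1.70 ± 0.638 FPKM (SD, n = 4 each), with p = 0.0286 by a two-sided exact permutation test, which is as small as 4 libraries against 4 can give. The annotation places another gene, Gm49368, on the same strand across nearly all of Itgam, and reads shared with it cannot be assigned to either.

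Itgax (ENSMUSG00000030789), which lies next to Itgam on chromosome 7 (plus strand, 128129547 to 128150657), gave 0.0537, 0.134, 0.166 and 0.135 FPKM in WT libraries 1 to 4 and, in the knockouts, 0.837, 1.02, 0.722 and 0.458 FPKM. The LRP1 KO mean was 6.22 times the WT mean, and the lowest LRP1 KO library, library 4, was still above every WT library (exact two-sided permutation p = 0.0286). CD11c is best known from dendritic cells. Of 7 dendritic cell markers 1 (Zbtb46) was high enough to be tested, at 2.19 to 3.05 FPKM in the 8 libraries, and did not pass (limma adjusted p 0.497). Ccr7, near 0 and named after its values were seen, was higher in every LRP1 KO library (0.0264 to 0.0414 FPKM) than in any WT library (at most 0.00756 FPKM). Xcr1 and Itgae, also low, had lower means in LRP1 KO. Flt3 and Clec9a had higher ones, and the groups overlapped in each of these genes. Cd209a was listed at 0 throughout. The 7 markers summed to between 2.56 and 3.30 FPKM per WT library and between 2.33 and 2.91 FPKM per LRP1 KO library, nearly all of it Zbtb46, and the part of dendritic cells in the Itgax difference was not tested.

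Itgal (ENSMUSG00000030830, chromosome 7, plus strand, 127296260 to 127335138), the alpha chain of LFA-1 and the main CD11 chain of lymphocytes, stayed under 0.2 FPKM in every library. WT libraries 1 to 4 had 0.119, 0.0469, 0.0549 and 0.0552 FPKM, and the knockouts had 0.130, 0.118, 0.164 and 0.0752 FPKM. The groups overlapped through WT library 1 and LRP1 KO libraries 2 and 4 (exact two-sided permutation p = 0.0857). The 13 lymphocyte markers, with Lck the highest, summed to at most 0.733 FPKM per WT library and 0.738 FPKM per knockout library, and 6 of the 13 were listed at 0 throughout.

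Itga4 (ENSMUSG00000027009, chromosome 2, plus strand, 79255426 to 79333123) was likewise low, with 0.0417, 0.0460, 0.107 and 0.0559 FPKM in WT libraries 1 to 4 against 0.262, 0.191, 0.332 and 0.0993 FPKM in the knockouts. Its 3′ end overlaps the antisense gene Cerkl, and the sources used here do not say whether counting used strand. Of the LRP1 KO libraries, 3 were above every WT library, and library 4 was below WT library 3 (exact two-sided permutation p = 0.0571). Itgb1, the beta chain that completes the VCAM-1 receptor VLA-4, was far more abundant, with a mean of 404 ± 51.1 FPKM for WT against 490 ± 32.5 FPKM for LRP1 KO (SD, n = 4 each). Its log2(FPKM + 1) difference of 0.28 did not pass (limma adjusted p 0.0723). Itgb7, the other partner, was at 0.309 FPKM or less in every library.

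The 3 CD11 chains together (Itgam, Itgal and Itgax) came to 21.9, 76.7, 23.8 and 32.8% of the Itgb2 level in WT and to 46.5, 53.5, 58.0 and 43.0% in LRP1 KO libraries 1 to 4, as ratios of FPKM. The groups overlapped, because Itgam raised WT library 2. Itgam had the highest FPKM of the 3 chains in every LRP1 KO library and Itgal the lowest.

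Selplg (ENSMUSG00000048163, chromosome 5, minus strand, 113818536 to 113832644) encodes PSGL-1, which selectins bind once its sugars carry fucose and sialic acid. The study's methods list it among genes also measured by real-time PCR. WT libraries 1 to 4 had 0.0993, 0.131, 0.131 and 0.00403 FPKM, against 0.708, 1.28, 0.661 and 1.01 FPKM in the knockouts. The groups were well apart (exact two-sided permutation p = 0.0286), though the WT values are near 0. When all 18026 genes above 0 were fitted with no filter, Selplg, Itgax and Itgam had limma adjusted p-values of 0.0102, 0.0146 and 0.0468, each with a higher level in LRP1 KO. That fit called 3.31% of all its genes, and 2.41% of those under the filter, as higher. The other 3 low genes did not pass, at 0.0754 for Itga4, 0.0756 for Sele and 0.176 for Itgal.

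Of the endothelial genes, Selp (ENSMUSG00000026580, chromosome 1, plus strand, 164115264 to 164150026), which encodes the P-selectin of endothelial granules and platelets, had 12.1, 8.67, 7.82 and 10.4 FPKM in WT libraries 1 to 4, against 18.8, 15.7, 11.9 and 9.82 FPKM in the knockouts. LRP1 KO libraries 1 and 2 were above all WT libraries, and libraries 3 and 4 were within the WT range. The log2(FPKM + 1) difference of 0.46 (SE 0.19, 95% interval 0.03 to 0.89) did not pass after adjustment (limma adjusted p 0.127). Without LRP1 KO library 4 it was 0.61 and passed (limma adjusted p 0.0307, the lowest of the alternatives, the highest being 0.288). Platelet markers were low, since 8 genes, with Pf4 the highest, summed to no more than 2.55 FPKM in any WT library and 5.02 FPKM in any LRP1 KO library. Pf4 itself was at 0.825 to 2.75 FPKM in LRP1 KO, above every WT library (0.623 to 0.725 FPKM), while the groups overlapped for the rest of that list. The part of platelets in the Selp values was not tested.

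Sele (ENSMUSG00000026582), the neighbour of Selp on chromosome 1 (plus strand, 164048234 to 164057677), gave 0.237, 0.320, 0.254 and 0.258 FPKM in WT libraries 1 to 4 and, in the knockouts, 0.901, 0.642, 0.706 and 0.313 FPKM. E-selectin mRNA was thus low in all libraries. LRP1 KO libraries 1 to 3 were above every WT library, and library 4 lay inside the WT range (exact two-sided permutation p = 0.0571). The ratio of means was 2.39.

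Icam1 (ENSMUSG00000037405, chromosome 9, plus strand, 21015985 to 21028817) had 41.0, 49.6, 42.5 and 37.6 FPKM in WT libraries 1 to 4, against 64.1, 52.4, 57.9 and 51.5 FPKM in the knockouts. All LRP1 KO libraries were higher than all WT libraries, with WT library 2 just below LRP1 KO library 4. The mean rose from 42.7 ± 5.04 to 56.5 ± 5.84 FPKM (SD, n = 4 each), a log2(FPKM + 1) difference of 0.40 (SE 0.10, limma adjusted p 0.0297, 95% interval 0.18 to 0.61). This call was a narrow one. It survived the removal of WT library 2 or of LRP1 KO library 4 but was lost on removal of any of the other 6. The call was also lost with no filter on low values and with the replicate number as a term in the fit. Over all alternatives the limma adjusted p-values were 0.0146 to 0.0831.

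Vcam1 (ENSMUSG00000027962, chromosome 3, minus strand, 116109949 to 116129688) had the highest level of the 10 genes, with 143, 89.3, 106 and 127 FPKM in WT libraries 1 to 4 against 107, 96.5, 93.7 and 120 FPKM in the knockouts. The LRP1 KO libraries lay inside the WT range. The means were 116 ± 23.5 and 104 ± 11.8 FPKM (SD, n = 4 each), a log2(FPKM + 1) difference of -0.14 (SE 0.14, limma adjusted p 0.510, 95% interval -0.46 to 0.17). As a ratio of FPKM + 1 the interval ran from 0.729 to 1.13. Vcam1 is made by fibroblasts as well as by endothelium, and fibroblast markers, with Col1a2 the highest, summed to 2002 to 3206 FPKM in LRP1 KO.

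By level, Vcam1 stood above Icam1 and Icam1 above Selp in every library, with no overlap between them, followed by Itgb2. The other 6 genes were lower and changed places between the groups. In WT, Sele was above Itgax and Selplg in every library, whereas in LRP1 KO Itgam was above the other 5 in every library and the ranges of Selplg, Itgax and Sele overlapped. Itga4 and Itgal were the lowest on the mean over all libraries, with overlapping ranges in both groups. The order of Vcam1, Icam1, Selp and Itgb2 was the same in WT and LRP1 KO.

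The genes differed in which LRP1 KO libraries were high. For Itgam, Itgb2 and Selplg the LRP1 KO libraries ran, from low to high, 3, 1, 4 and 2. The summed macrophage markers ran in the same order, at 237, 378, 508 and 572 FPKM. Icam1 and Sele ran 4, 2, 3 and 1, the order of the summed endothelial markers, and Selp ran 4, 3, 2 and 1. Itgax, Itgal and Itga4 were lowest in LRP1 KO library 4, and Vcam1 highest there. These orders are a description of 4 libraries, and the part of other cells in the differences was not tested.

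**Figure D2:**
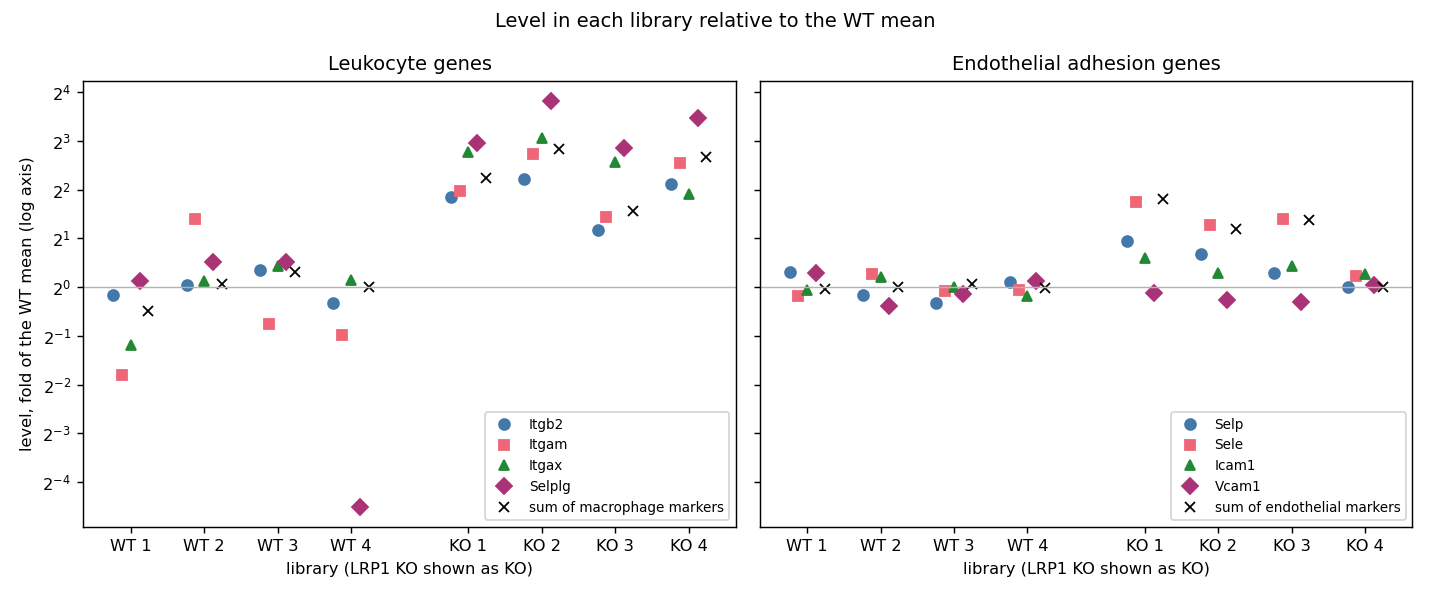
Level in each library as a fold of the WT mean (log axis), for Itgb2, Itgam, Itgax and Selplg with the summed macrophage markers (left) and for Selp, Sele, Icam1 and Vcam1 with the summed endothelial markers (right). LRP1 KO library 3 is the lowest of its group for the macrophage sum, Itgb2, Itgam and Selplg, and library 4 is at the WT level for the endothelial sum, Selp and Sele.

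Beside the marker sums the picture of single genes changed. As a percent of the summed macrophage markers, Itgb2 was at 2.20, 1.73, 1.82 and 1.40% in WT libraries 1 to 4 and at 1.35, 1.15, 1.34 and 1.19% in the knockouts, so that it was lower in every LRP1 KO library by this measure. Against the pan-leukocyte markers the direction depended on 1 gene. As a percent of all 10 of them Itgb2 was higher in every LRP1 KO library (1.72 to 3.04%, against 0.526 to 0.955% in WT). Most of that sum, however, is Arhgdib, at 163 to 225 FPKM, while the other 9 summed to 4.04 to 7.07 FPKM in WT and 22.8 to 39.7 FPKM in LRP1 KO. As a percent of the other 9, a sum chosen after the values were seen, Itgb2 was at 19.3 to 31.0% in WT and lower in every LRP1 KO library, at 14.0 to 19.2%. Itgam was at 0.371 to 0.414% of the summed macrophage markers in all LRP1 KO libraries and at 0.179, 1.11, 0.211 and 0.223% in WT, and Itgax overlapped between the groups. Selplg, at most 0.174% of the macrophage sum in WT, was at 0.187 to 0.279% in LRP1 KO and so was higher in every knockout library by this measure too. Sele was at 0.165 to 0.218% of the summed endothelial markers in WT and 0.176 to 0.211% in LRP1 KO, with wide overlap. Selp was at 5.06 to 8.39% of that endothelial sum in WT, at 3.65, 4.66 and 3.12% in LRP1 KO libraries 1 to 3 and at 6.63% in library 4, so that 3 of 4 knockout libraries lay below every WT library by this measure. Icam1 was at 25.9 to 33.8% of the endothelial sum in WT, at 12.5, 15.6 and 15.2% in LRP1 KO libraries 1 to 3 and at 34.7% in library 4. Vcam1 was at 60.9 to 99.1% of the endothelial sum in WT, at 20.9, 28.7 and 24.6% in LRP1 KO libraries 1 to 3 and at 80.7% in library 4. Of the summed fibroblast markers it made up 2.46 to 5.90% in WT and 3.67 to 5.36% in LRP1 KO, which overlapped. Lyz2 had the highest mean of the macrophage markers, rising from 39.4 ± 12.7 to 249.7 ± 89.8 FPKM (SD, n = 4 each; limma adjusted p 0.00205), and Eng the highest of the endothelial markers, so these shares lean on those genes.

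**Figure D3:**
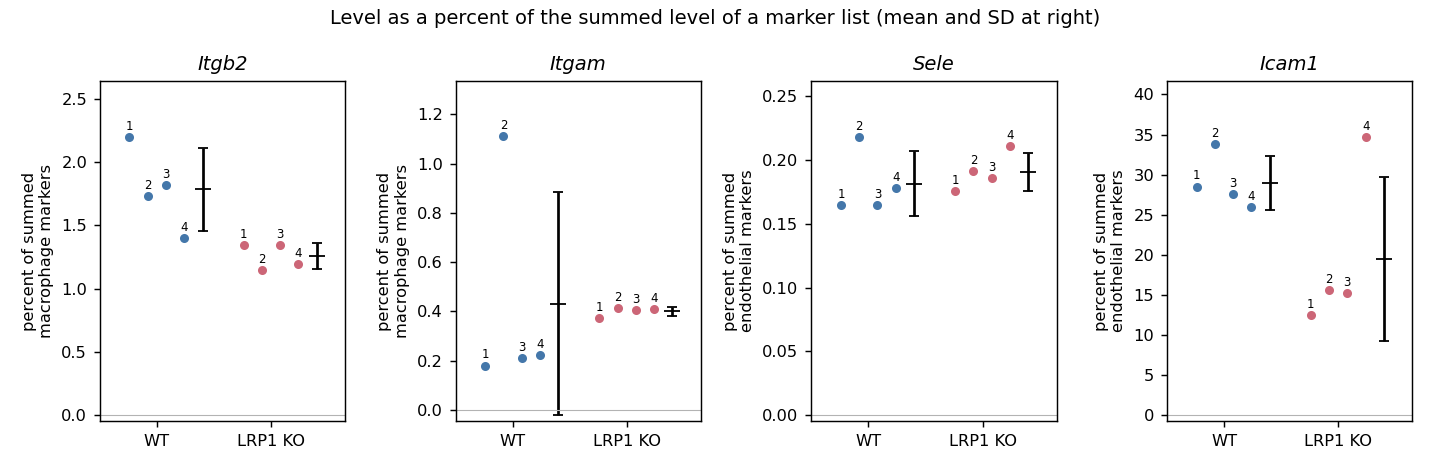
Itgb2 and Itgam as a percent of the summed macrophage markers and Sele and Icam1 as a percent of the summed endothelial markers, in 4 WT (blue) and 4 LRP1 KO (red) libraries with the mean and SD in black. By this measure Itgb2 is lower in every LRP1 KO library, Sele overlaps, and Icam1 is lower in LRP1 KO libraries 1 to 3 while library 4, at 34.7%, is above the WT libraries.

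Genes outside the 10 that serve the same steps were taken from lists written by hand, and their counts are to be read against the 6.27% of all tested genes called higher and 7.31% called lower. Without LRP1 KO library 4 these shares were 12.6% and 13.9%. Without any other single library they were 2.46 to 4.14% and 2.04 to 4.71%, and counts without a library are to be read against these. Of 12 tested genes of integrin activation, 4 rose, 0 fell and 8 did not pass. Fermt3, the blood-cell kindlin that binds the tail of the beta chain, went from 0.464 to 0.735 FPKM in WT to 1.39 to 2.82 FPKM in LRP1 KO, a log2(FPKM + 1) difference of 0.94 (SE 0.14, limma adjusted p 0.00482). It was under 1 FPKM in every WT library and entered the test only through LRP1 KO, and of the other 11 genes 3 rose. On the same scale the kinase gene Lyn rose by 0.87 (SE 0.16, limma adjusted p 0.0118). Rap1a and Rap1b, small GTPases that turn integrins on, each rose by 0.25 (limma adjusted p 0.0326 and 0.0388). Without LRP1 KO library 4, 5 were called higher and 2 lower. The count was 2, all higher, without WT library 2 or 4 or without LRP1 KO library 1, 2 or 3. Tln1, which encodes talin and is used by most cells, averaged 78.1 ± 8.17 FPKM for WT against 80.0 ± 4.07 FPKM for the knockouts (SD, n = 4 each; limma adjusted p 0.749).

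Of 7 tested genes among 14 other leukocyte adhesion receptors, 3 rose and 0 fell. Cd93 rose by 1.37 (SE 0.20, limma adjusted p 0.00448), Cd44, a hyaluronan receptor, by 1.08 (SE 0.22, limma adjusted p 0.0170) and Cd47 by 0.37 (SE 0.09, limma adjusted p 0.0279) on the log2(FPKM + 1) scale. These 3 genes are not particular to leukocytes, and Cd93 is also a gene of endothelium. The count was 6, all higher, without LRP1 KO library 4. Without WT library 2 it was 1 of 7 (14.3%), where 2.46% of all tested genes were called higher.

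Of 15 tested genes among 20 other endothelial adhesion and transmigration genes, 1 (6.67%) rose and 0 fell, a share near that of all tested genes. This was Mcam (CD146), from 4.96 ± 0.611 to 14.4 ± 5.13 FPKM (SD, n = 4 each), a log2(FPKM + 1) difference of 1.29 (SE 0.25, limma adjusted p 0.0150). Pecam1, Cdh5 and Icam2, the constitutive integrin ligand of endothelium, had differences of 1.16, 1.22 and 0.82 but did not pass (limma adjusted p 0.0814, 0.0766 and 0.0930), and LRP1 KO library 4 was at or near the WT level in all 3. Without that library 7 genes of the list were called higher and 2 lower. Without WT library 4, 1 was called higher and 1 lower, and without WT library 2 the count was 0. The junction genes Jam2 and Jam3 averaged 33.6 ± 5.10 and 18.8 ± 0.486 FPKM for WT against 33.5 ± 2.88 and 19.5 ± 0.912 FPKM for LRP1 KO (SD, n = 4 each).

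Among 9 tested genes of selectin ligand synthesis, 1 rose and 1 fell. Gcnt1, which builds the branch that carries the selectin-binding sugars, went down, with means of 9.32 ± 1.07 FPKM for WT and 5.01 ± 1.47 FPKM for LRP1 KO (SD, n = 4 each), a log2(FPKM + 1) difference of -0.80 (SE 0.15, limma adjusted p 0.0134). The sialyltransferase gene St3gal4 rose by 0.38 (SE 0.08, limma adjusted p 0.0172) on that scale. The list had 1 call in place of 2 without WT library 2 or without LRP1 KO library 2 or 3. Fut7, the fucosyltransferase of leukocytes, was at 0.154 FPKM or less in every library.

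None of 8 tested genes of Weibel-Palade bodies, the endothelial granules that store P-selectin, passed limma's threshold, though 1 did without WT library 3 and 2 without LRP1 KO library 4. Vwf, their main cargo, averaged 1.56 ± 0.653 FPKM for WT against 2.15 ± 0.611 FPKM for the knockouts (SD, n = 4 each; limma adjusted p 0.317). Of 10 tested genes of the cytokine inputs, 2 rose, Il4ra by 0.37 (SE 0.10, limma adjusted p 0.0439) and Il1r1 by 0.38 (SE 0.11, limma adjusted p 0.0499) on the log2(FPKM + 1) scale. The list had 0 calls without WT library 1, 2 or 3 or without LRP1 KO library 1 or 2, and 1 without WT library 4 or LRP1 KO library 3. In these fits 2.46 to 4.14% of all tested genes were called higher. Without LRP1 KO library 4 the list had 1 higher and 1 lower. The NF-kB genes Rela and Nfkb1 and the feedback gene Nfkbia did not pass, with differences of 0.02, -0.04 and -0.06. Tnf and Il1b were at 0.223 and 0.128 FPKM or less in every library.

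**Figure D4:**
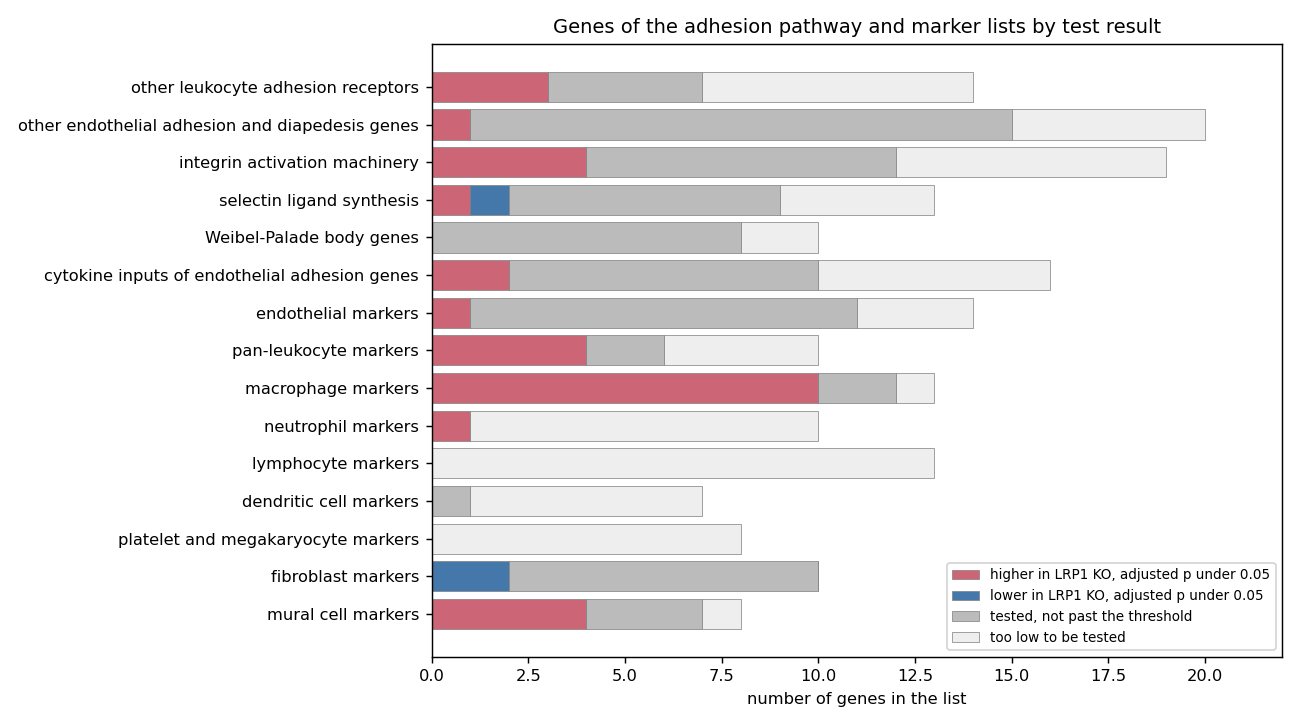
Number of genes in each list (horizontal axis) by result of the limma test: higher (red) or lower (blue) in LRP1 KO at an adjusted p under 0.05, tested and not past it (dark grey), or too low to be tested (light grey). The macrophage list has 10 genes called higher of 13, and the lymphocyte and platelet lists have no gene high enough to test.

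Of 6 tested pan-leukocyte markers 4 rose (Cd52, Lcp1, Laptm5 and Cd53), and Arhgdib had the highest level. Cd52 entered the test only through LRP1 KO, and of the other 5 genes 3 rose. Ptprc (CD45), the defining one, was too low for the test, reaching 0.161 FPKM at most among WT libraries and 0.403 FPKM at least among LRP1 KO libraries. Of 10 neutrophil markers only S100a8 was tested and it rose from 0.813 ± 0.528 to 2.52 ± 1.09 FPKM (SD, n = 4 each, limma adjusted p 0.0475). This call was lost when any library but WT 1 or LRP1 KO 3 was left out. Every LRP1 KO library reached 1 FPKM but of WT only library 1 did (1.48 FPKM), so the filter favoured this direction. S100a9, the usual partner of S100a8, was listed at 0 in all 8 libraries. Of 11 tested endothelial markers 1 rose (Eng), of 10 fibroblast markers 2 fell (Dpt and Pdgfra), and of 7 tested mural cell markers 4 rose (Cnn1, Des, Tagln and Acta2, the highest). Without LRP1 KO library 4, 10 endothelial markers were called higher and 6 fibroblast markers lower, and without any other single library 0 of either list did.

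The profiles nearest to each tested gene were found by the root-mean-square difference over the 8 libraries, after each gene's log2(FPKM + 1) values had been centred. For Itgb2 they were Cybb, the oxidase subunit of phagocytes (0.08), Hk3 (0.12) and Tlr13 (0.12). With WT means of 0.208, 0.224 and 0.246 FPKM, these 3 genes were under 1 FPKM in every WT library and entered the search only because LRP1 KO was high. For Icam1 they were Ccl7, a chemokine that attracts monocytes (0.05), Rarb (0.07) and Dusp8 (0.09). Ccl7 went from a WT mean of 44.5 FPKM to an LRP1 KO mean of 59.9 FPKM. It was picked because its profile matched that of Icam1, group difference included, so this rise is not a separate result. For Selp the nearest profiles were Coro7 (0.10), Tec (0.12) and Podxl (0.14), and for Vcam1 they were Atp1b1 (0.07), Etv4 (0.07) and Mogat2 (0.07).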

How the data were processed

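The members and gene lists were chosen with earlier results of these data known. The labels name TopHat2, Cufflinks and mm10, whereas the study's methods describe STAR, featureCounts and EdgeR. The authors deposited 1 table of values that are not whole numbers, with equal maxima (7793) and column sums of 503571 to 504112, which were taken as FPKM quantile normalized across the 8 libraries. The unit is inferred, as the header names none. Library depth, counting error and shifts in total RNA cannot be recovered from it.

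Groups and replicate numbers were taken from titles. Values were analysed as log2(FPKM + 1), which understates changes of low genes. Genes of at least 1 FPKM in at least 4 libraries (11389 of 22520) were fitted with limma 3.58.1 (R 4.3.3) with group as the only term and variances following the mean. Single genes were compared by exact permutation of the libraries (two-sided). The fit was tested on simulated data. Alternatives changed the scaling, filter, pseudocount, variance model, replicate block and libraries. Lists were matched by Ensembl identifier (GENCODE M21, GRCm38), and promoters came from RefSeq (GRCm38.p6). Named genes are the 10 members, Lrp1, the nearest profiles, up to 3 called genes per pathway list by adjusted p, and the highest marker of each list. Others were named because they did not pass or were near 0, or were chosen after their values were seen (Rap1b, Ccl7's level, Dpt, Pdgfra and the called pan-leukocyte and mural genes).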

Additional observations from a re-analysis of the deposited data

Results flagged for a closer look

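In the groups of 4 libraries, 2 values lay far from the other 3 by Dixon's gap criterion, among 20 groups examined, of which chance gives about 1. Itgam in WT library 2 was at 0.935 FPKM, against 0.102 to 0.210 FPKM in the other WT libraries. In that library Itgb2, at 1.45 FPKM, and the summed macrophage markers, at 84.0 FPKM, were within the range of the other WT libraries. Itgal in WT library 1 was at 0.119 FPKM, against 0.0469 to 0.0552 FPKM in the other 3, and without it the LRP1 KO libraries, at 0.0752 FPKM and above, no longer overlapped WT.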

How the results depend on the processing

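Of the 10 genes, 2 had an adjusted p under 0.05 in the main test. With no filter on low values there were 4, of which 2 also passed the 2-fold limit in place of 1. When each library was left out in turn, 1 to 3 passed, 512 to 3021 of all genes (1547 with all libraries), 4 to 29 genes of the pathway lists (12) and 17 to 36 of the marker lists (22), with the highest counts always without LRP1 KO library 4. The number of the 10 genes whose LRP1 KO libraries lay above all WT libraries was 5, and 5 to 7 without 1 library, an alternative added after the data were seen. It was 7 without LRP1 KO library 4, when Itga4 and Sele joined, against 17.8% of tested genes and 10.3% of those under the filter. The labels do not say whether replicate numbers pair the libraries. The deviations of libraries numbered 4 correlated at -0.31 and those of the other 3 numbers at 0.14 to 0.34, which does not settle it. With the number as a replicate block, 1013 genes and 1 of the 10 (Itgb2) passed, with Icam1 at a limma adjusted p of 0.0517. The pathway lists then had 11 calls in place of 12, with 0 in place of 2 for the cytokine inputs. No gene among the 10 changed direction under any alternative run. With a pseudocount of 0.1 the differences of the 6 low genes were larger, from 0.40 for Itgal to 2.43 for Selplg. For these 6 the depth is unknown and the values are near 0, which limits every statement on them.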

Other observations

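Several listed genes that were too low for the test across genes had groups that did not overlap, and are given as values chosen after they were seen. Signaling genes of leukocytes that act with the integrins were higher in LRP1 KO, with means of 0.238 and 1.16 FPKM for Fyb and 0.109 and 0.751 FPKM for Vav1 in WT and LRP1 KO. The cytokine genes Tnf (0.0190 and 0.166 FPKM) and Il1a (0.0468 and 0.308 FPKM) were also higher. The adhesion molecule gene L1cam averaged 0.280 FPKM over WT and 0.895 FPKM over LRP1 KO libraries. Lower in LRP1 KO were Aoc3, which encodes vascular adhesion protein (0.865 and 0.356 FPKM), and Madcam1, the mucosal ligand of alpha-4 integrin (0.166 and 0.0640 FPKM). Such a separation, with LRP1 KO higher, was seen in 5.38% of genes under the filter, and with LRP1 KO lower in 4.73%.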
